A study of Mus musculus with 10 samples.

Results

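Homologous recombination copies the sister chromatid to mend broken DNA, the Fanconi anaemia pathway takes DNA crosslinks apart at replication forks, and the ATM and ATR kinases halt the cell cycle while damage persists. The transcripts of 35 mouse genes of these pathways were followed in dissected pituitary intermediate lobe (IL), the tissue of melanotrophs and the stem cells (SCs) that line the cleft. The genes were taken by symbol from a list made with earlier results of these data known. The list as a whole was therefore given no test. By symbol, all 35 were found among the 29527 genes measured. All 35 also passed the filter on low values, which left 17268 genes for testing. In p27-/- mice 3 of the 35 rose above WT, the helicase gene Brip1, the recombination gene Rad51ap1 and the checkpoint gene Topbp1, and none fell (8.57% called, beside 7.78% of all tested genes). With 1 mouse left out the number was 1 to 3. Over the settings that tested the gene, Brip1 kept its call in 18 of 18 and Topbp1 in 5 of 19. In p27-/-;Sox2+/- mice none passed the threshold against WT (beside 2.71% of all tested genes), and none passed between the mutants (beside 0.145%). The median difference of the 35 from WT was 0.14 in p27-/- and 0.16 in p27-/-;Sox2+/- mice.

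Bulk RNA was sequenced from the IL of 10 male and female mice aged 2 to 3 months and of mixed background, with 1 library per mouse. The groups were 4 WT mice, 3 p27-/- mice, which lack both working copies of Cdkn1b (allele Cdkn1b tm1Mf) in every cell, and 3 p27-/-;Sox2+/- mice, which in addition carried a single working copy of Sox2. The labels do not name the Sox2 allele, and mice with the Sox2 change alone were not among the samples, so its values here are always read on top of the loss of p27. Cdkn1b encodes P27, an inhibitor of cyclin-dependent kinases, and Sox2 encodes a transcription factor. The paper reports SOX2 in the SCs and, at a lower level, in melanotrophs.

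The breaks handled by homologous recombination arise mostly during S phase, and many of the genes are transcribed more in dividing than in resting cells. A break is first gripped by the MRE11, RAD50 and NBN proteins and cut back to single strands, BRCA1 with its partners then brings BRCA2, and the strand invades the intact copy. In the Fanconi pathway a core complex adds ubiquitin to the FANCD2 and FANCI pair, which gathers nucleases and BRIP1 at the crosslink.

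Each value below is a deposited normalised log2 expression value, and each difference is between means of such values, tested with limma across all 17268 genes with Benjamini-Hochberg adjustment and a threshold of 0.05. The transformation behind the values is not given in the sources used here, so a fold below is on this scale and need not equal the ratio of reads. A level can be followed between mice for 1 gene but not compared between genes, because the values are not per length. In bulk tissue fewer cells of a type and less RNA per cell cannot be told apart. Cdkn1b itself read 8.39 to 8.85 in WT, 8.04 to 8.27 in p27-/- and 7.73 to 8.10 in p27-/-;Sox2+/- mice. It was lower in both mutants without overlap (limma, adjusted p = 0.0470 and 0.00854), yet still read there, at 0.74-fold and 0.61-fold of WT on this scale. Sox2 read 7.34 to 7.75, 7.08 to 7.45 and 6.88 to 7.07 in the same order, lowest in every p27-/-;Sox2+/- mouse, with an adjusted p of 0.0811 against WT and 0.791 against p27-/-. The melanotroph genes Pomc and Pax7 were at 18.00 to 19.00 and 11.45 to 11.97 over all mice, and the anterior lobe hormone gene Prl ranged from 11.40 to 17.54 within WT alone.

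Sequence just outside the 3 genes that rose is shown first, so that the letters before their starts can be set side by side. It was read from RefSeq on GRCm38.p6, in the direction of transcription, for as much of the 250 bases before the annotated start as lies outside the gene's span. Capitals mark the CCAAT box, here always read on the opposite strand.
Brip1 (chr11:86201216-86201443, - strand): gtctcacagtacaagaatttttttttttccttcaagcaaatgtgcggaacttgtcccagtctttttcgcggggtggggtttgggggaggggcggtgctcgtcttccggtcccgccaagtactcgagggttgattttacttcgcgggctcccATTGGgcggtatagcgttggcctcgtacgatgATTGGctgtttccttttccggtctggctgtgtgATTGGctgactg
Rad51ap1 (chr6:126939622-126939837, - strand): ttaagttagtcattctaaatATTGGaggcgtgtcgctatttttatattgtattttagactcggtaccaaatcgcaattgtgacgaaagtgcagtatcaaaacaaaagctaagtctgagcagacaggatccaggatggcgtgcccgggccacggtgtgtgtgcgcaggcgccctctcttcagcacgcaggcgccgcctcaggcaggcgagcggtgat
Topbp1 (chr9:103305077-103305166, + strand): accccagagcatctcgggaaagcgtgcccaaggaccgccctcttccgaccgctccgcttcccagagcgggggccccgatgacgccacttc
The 250-base window before the Brip1 start held 3 CCAAT words, that of Rad51ap1 held 2, of which 1 lies in the stretch printed, and that of Topbp1 held none. The last 22, 34 and 160 bases of these windows lie inside the span of Brip1, Rad51ap1 and Topbp1 and are not printed.

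A window was found for 28 of the 35 genes, and none was found for Fancd2, Rbbp8, Rad50, Nbn, Xrcc2, Rad54b and Exo1. Both strands were searched for CCAAT and for the E2F-type words TTTCCCGC, TTTCGCGC, TTTGCCGC and TTTGGCGC, and words of different kinds can share at most 1 base at their ends. CCAAT was in 16 of the 28 windows (57.1%), against 40.5% of the 10020 tested genes with a window and 37.5% of all 27025 genes with one. An E2F-type word was in 5 of the 28 (17.9%), against 3.77% and 2.16%. The CHR word TTTGAA was in 2 of the 28 (7.14%), against 12.9% and 18.3%. The 5 genes with an E2F-type word were Topbp1, Chek2, Bard1, Brca2 and Fancg, and capitals mark the word, on either strand, within 30 bases of each.
Topbp1 (chr9:103305187-103305216, + strand): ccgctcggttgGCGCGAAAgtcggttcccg
Chek2 (chr5:110839820-110839849, + strand): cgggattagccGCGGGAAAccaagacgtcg
Bard1 (chr1:71103163-71103192, - strand): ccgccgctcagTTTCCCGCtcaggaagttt
Brca2 (chr5:150522442-150522471, + strand): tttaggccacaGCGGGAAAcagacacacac
Fancg (chr4:43010335-43010364, - strand): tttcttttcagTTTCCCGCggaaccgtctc
The words begin 129, 152, 209, 168 and 52 bases before the start used for the window, in that order. That start can lie inside the gene's span, as it does for 20 of the 28 windows, and 4 of the 5 words, all but that of Bard1, lie within the span and not outside the gene. A match of letters is a description and not a site of binding.

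Against WT, the 3 genes that rose in p27-/- mice were 8.57% of the 35, beside 7.78% of all tested genes called in either direction and 3.16% called higher. At an unadjusted p under 0.05 there were 6, all higher, beside 11.3% of all tested genes in that direction. Without p27-/- replicate 2 or 3, or without WT replicate 3, the number called was 1. The differences of the 35 ran from -0.15 for Atr to 0.50 for Brip1, with a median of 0.14, and 30 of them were above 0 (85.7%), beside a median of 0.01 and 51.6% over all tested genes. In p27-/-;Sox2+/- mice against WT none of the 35 was called by limma, beside 2.71% of all tested genes in either direction. There 6 of the 35 had an unadjusted p under 0.05, all of them higher, and 7.64% of all tested genes did so in that direction. The median of the 35 was 0.16 and 31 were above 0 (88.6%), beside 0.01 and 52.1% over all tested genes. The 2 comparisons share the WT mice.

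**Figure D1:**
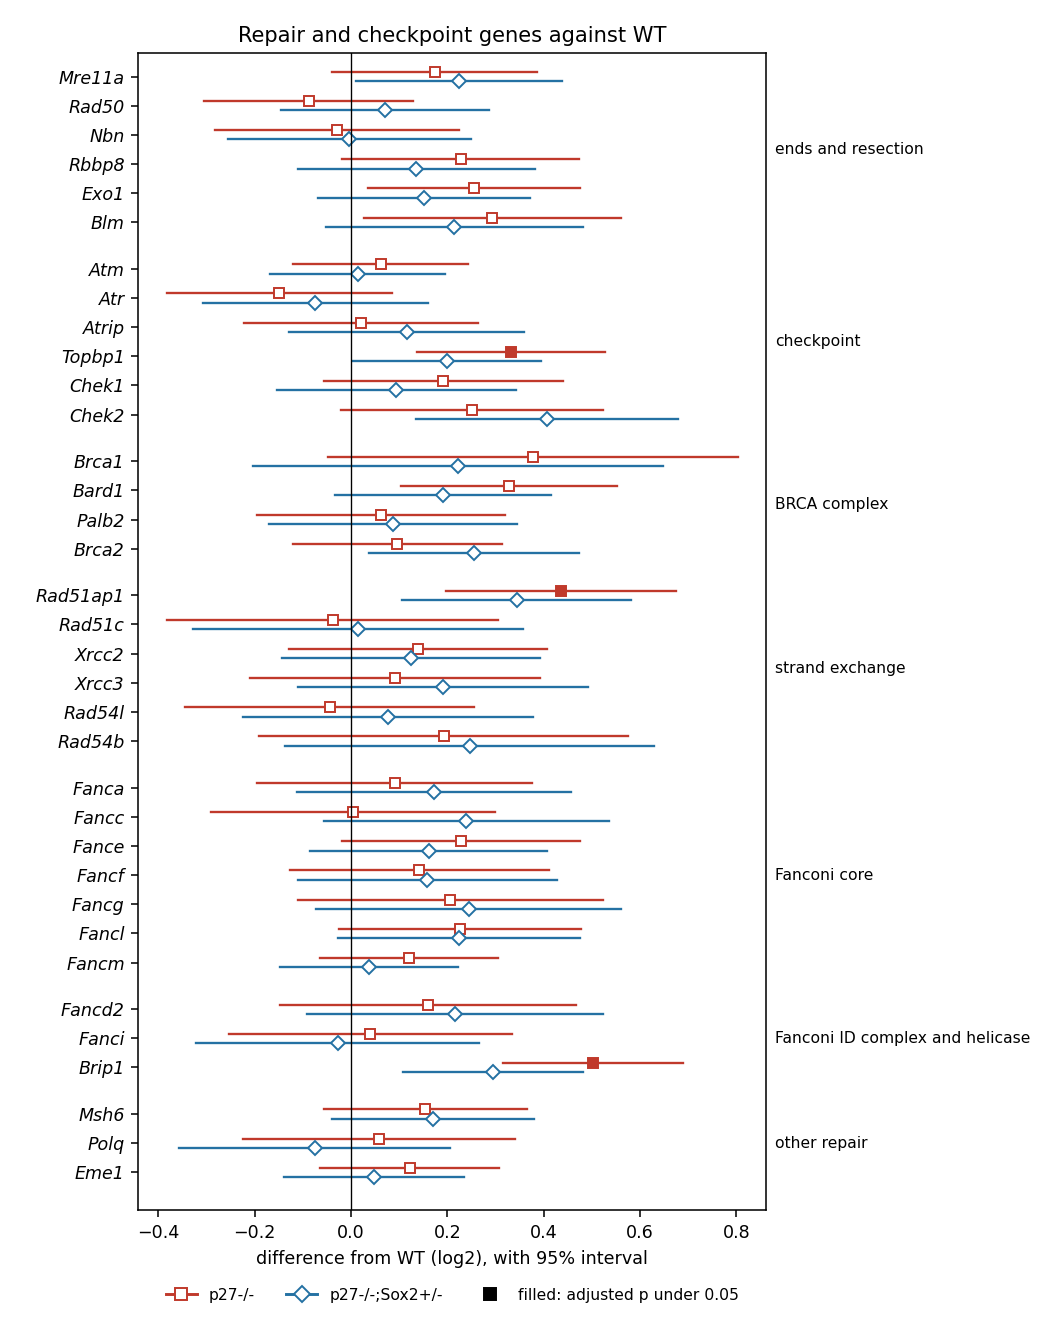
Difference from WT in log2 (horizontal axis) of the 35 genes, grouped by role, for p27-/- (squares) and p27-/-;Sox2+/- mice (diamonds). Lines are 95% intervals from limma and filled symbols mark an adjusted p under 0.05, which Brip1, Rad51ap1 and Topbp1 have in p27-/- alone. Most symbols lie to the right of 0, 30 of 35 in p27-/- and 31 of 35 in p27-/-;Sox2+/- mice.

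Averaged over the 35 genes and set against the WT mean, the 4 WT mice lay at -0.071 to 0.050, the p27-/- mice at 0.118, 0.118 and 0.213, and the p27-/-;Sox2+/- mice at 0.144, 0.159 and 0.140. Every mutant mouse was thus above every WT mouse in this average, and the mutants overlapped. The mean of the 3 p27-/- mice was 0.150 ± 0.054 (SD), and that of the 3 p27-/-;Sox2+/- mice 0.147 ± 0.010 (SD). Taken gene by gene, 8 of the 35 had all p27-/- mice above all WT mice, beside 10.2% of all tested genes, and 9 had all p27-/-;Sox2+/- mice above all WT mice, beside 7.02%. No gene of the 35 had all mice of either mutant below all WT mice, beside 10.3% and 8.01% of all tested genes.

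**Figure D2:**
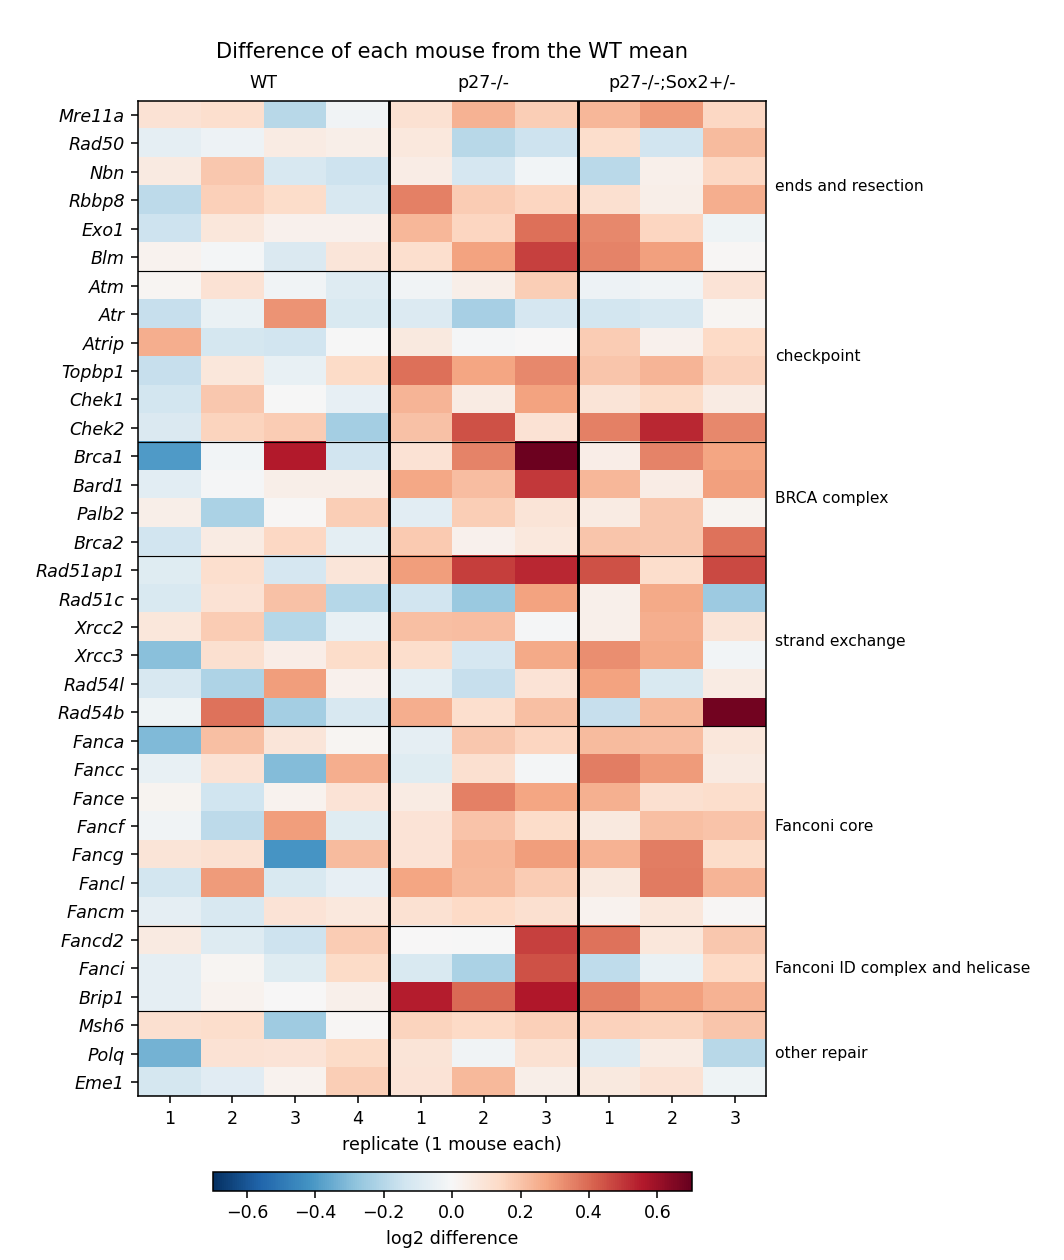
Difference of each mouse (columns) from the WT mean of each gene (rows, grouped by role), in log2, with higher values in red and lower values in blue. Brip1 is red in all 6 mutant mice, and the strongest red squares elsewhere are single mice, such as p27-/- replicate 3 for Brca1 and p27-/-;Sox2+/- replicate 3 for Rad54b.

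Brip1 encodes a DNA helicase that binds BRCA1 and is also known as the Fanconi protein FANCJ. The gene (ENSMUSG00000034329) lies on chromosome 11 of GRCm38.p6 from 86058136 to 86201215, a span that also holds the pseudogene Atp5l-ps2. Its values were 3.98, 4.07, 4.05 and 4.08 in WT, 4.59, 4.44 and 4.60 in p27-/-, and 4.39, 4.33 and 4.29 in p27-/-;Sox2+/- mice. The 3 groups did not overlap at all, with p27-/- mice highest and p27-/-;Sox2+/- mice between them and WT. The difference from WT was 0.50 in p27-/- (SE 0.09, 1.42-fold on this scale, adjusted p = 0.00468) and 0.29 in p27-/-;Sox2+/- mice (SE 0.09, adjusted p = 0.0898). Between the mutants it was -0.21 (95% interval -0.41 to -0.01), which did not pass after adjustment (unadjusted p = 0.0417, adjusted p = 0.707). Brip1 also varied least within groups of the 35 genes, with a pooled SD of 0.063 beside a median of 0.144 over the 35 and of 0.152 over all tested genes. Its mean of 4.28 over all mice lies not far above the filter of 3.32, and with a mean of at least 50 required it is not tested.

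Rad51ap1 encodes a protein that helps the broken strand pair with the intact copy. The gene (ENSMUSG00000030346) lies on chromosome 6 from 126923415 to 126939621, 7.98 Mb from Cdkn1b. Values were 3.89, 4.09, 3.86 and 4.06 in WT, 4.27, 4.46 and 4.51 in p27-/-, and 4.42, 4.10 and 4.44 in p27-/-;Sox2+/- mice. Neither mutant overlapped WT, although p27-/-;Sox2+/- replicate 2 at 4.10 lay next to the highest WT mouse at 4.09. The difference from WT was 0.44 in p27-/- (SE 0.11, 1.35-fold, adjusted p = 0.0321) and 0.34 in p27-/-;Sox2+/- mice (SE 0.11, adjusted p = 0.118). Leaving out p27-/- replicate 2 or 3, or WT replicate 3 or 4, ended the call in p27-/- (adjusted p = 0.108, 0.134, 0.0687 and 0.0516).

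Topbp1 encodes the protein that activates ATR at stalled forks, and its gene (ENSMUSG00000032555) lies on chromosome 9 from 103305167 to 103350428. It read 8.53, 8.77, 8.64 and 8.83 in WT, 9.08, 8.97 and 9.03 in p27-/-, and 8.89, 8.93 and 8.86 in p27-/-;Sox2+/- mice. As for Brip1, the 3 groups were apart, with p27-/- mice highest and WT mice lowest. The difference from WT was 0.33 in p27-/- (SE 0.09, 1.26-fold, adjusted p = 0.0412) and 0.20 in p27-/-;Sox2+/- mice (SE 0.09, adjusted p = 0.269). This call held in 5 of the 19 other settings tried, and was lost with any 1 mouse of either mutant left out, or WT replicate 1 or 3 (adjusted p = 0.0505 to 0.140).

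**Figure D3:**
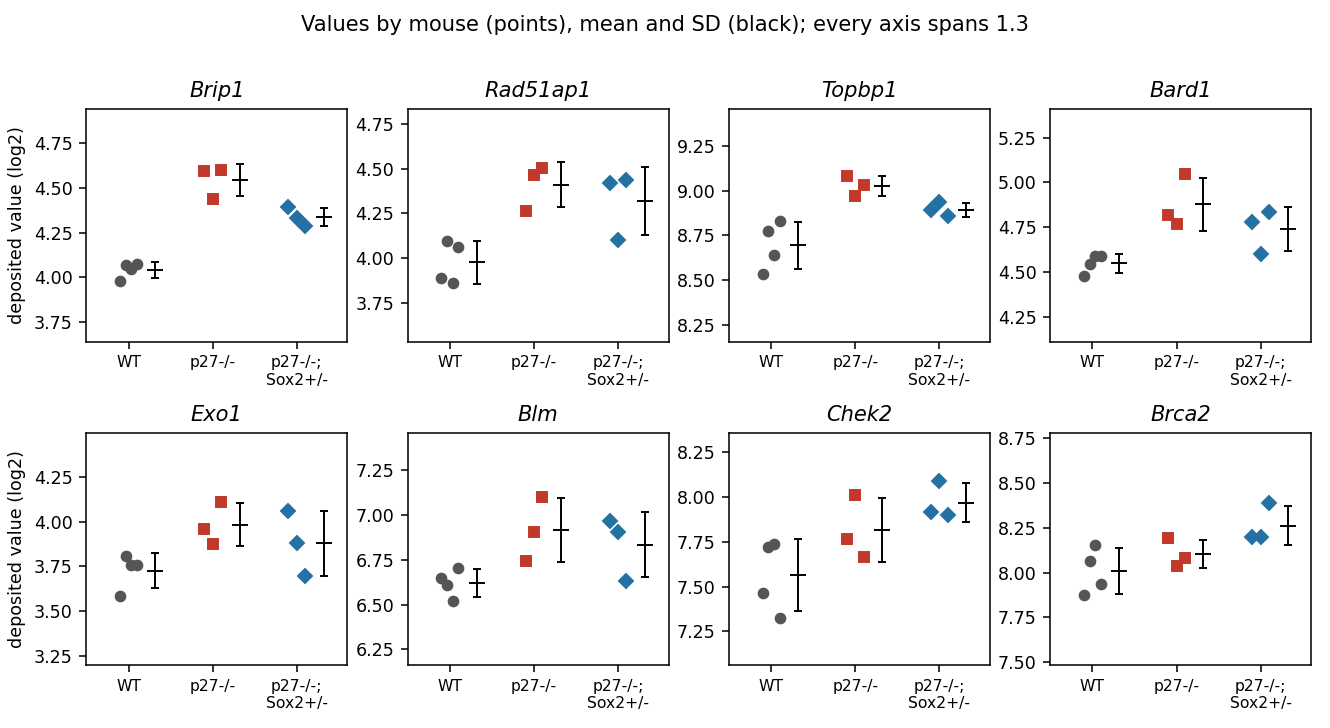
Deposited log2 value (vertical axis, every panel spanning 1.3) of 8 of the 35 genes in each mouse, with the group mean and SD in black beside the points. Brip1 and Topbp1 show 3 separate groups, whereas Chek2 and Brca2 have their highest mean in the p27-/-;Sox2+/- mice.

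Topbp1 acts beside the kinases that sense damage. Atm encodes the kinase that answers double-strand breaks, and read 9.52, 9.60, 9.48 and 9.41 in WT, 9.47, 9.54 and 9.67 in p27-/-, and 9.47, 9.48 and 9.60 in p27-/-;Sox2+/- mice. Atr encodes the kinase that answers single-stranded DNA, and read 9.44, 9.56, 9.91 and 9.49, then 9.51, 9.37 and 9.48, then 9.47, 9.49 and 9.62 in the same order. The groups overlapped for both genes, and WT replicate 3 held the highest Atr value. The differences from WT were 0.06 (95% interval -0.12 to 0.24) and 0.01 (-0.17 to 0.20) for Atm, and -0.15 (-0.38 to 0.09) and -0.07 (-0.31 to 0.16) for Atr, in p27-/- and p27-/-;Sox2+/- mice respectively. Atrip, whose product carries ATR to single-stranded DNA, differed by 0.02 and 0.12.

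The kinases downstream are CHEK1, which mainly receives the signal of ATR, and CHEK2, which mainly receives that of ATM. Chek1 read 5.58, 5.89, 5.71 and 5.65 in WT, 5.94, 5.76 and 5.99 in p27-/-, and 5.80, 5.84 and 5.76 in p27-/-;Sox2+/- mice, with differences of 0.19 (adjusted p = 0.334) and 0.09 (adjusted p = 0.719). Chek2 read 7.46, 7.72, 7.74 and 7.33, then 7.77, 8.01 and 7.66, then 7.92, 8.09 and 7.90. Every p27-/-;Sox2+/- mouse was above every WT mouse for Chek2, whereas the p27-/- mice overlapped WT. Its difference of 0.41 in p27-/-;Sox2+/- mice (SE 0.13, 95% interval 0.13 to 0.68, adjusted p = 0.107) was the largest of the 35 in that comparison, and it was 0.25 in p27-/- mice (adjusted p = 0.244). The direct difference between the mutants was 0.16 (-0.14 to 0.45, adjusted p = 0.977).

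Of the genes that act at broken ends, Rad50 encodes the ATPase of the end-binding complex, and read 9.29, 9.32, 9.41 and 9.40 in WT, 9.43, 9.16 and 9.21 in p27-/-, and 9.48, 9.22 and 9.58 in p27-/-;Sox2+/- mice. Its groups overlapped, as did those of Nbn, whose product carries the signal to ATM, and for both the difference was below 0 in p27-/- mice (-0.09 and -0.03). Mre11a, the nuclease gene of the complex, differed by 0.17 in p27-/- and by 0.22 in p27-/-;Sox2+/- mice, where the 3 mice at 8.31 to 8.47 lay above WT at 7.97 to 8.29 (unadjusted p = 0.0409, adjusted p = 0.254).

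Exo1, Blm and Rbbp8 act in resection, as an exonuclease, a helicase and the cofactor of MRE11 known as CtIP. Exo1 read 3.58, 3.81, 3.76 and 3.76 in WT, 3.96, 3.88 and 4.11 in p27-/-, and 4.06, 3.88 and 3.69 in p27-/-;Sox2+/- mice. Blm read 6.65, 6.61, 6.52 and 6.71, then 6.74, 6.90 and 7.10, then 6.97, 6.91 and 6.63. All p27-/- mice were above all WT mice for Exo1 and Blm, and p27-/-;Sox2+/- replicate 3 fell among the WT mice for both. Neither passed in p27-/- mice, with a difference of 0.26 for Exo1 (adjusted p = 0.144) and 0.29 for Blm (adjusted p = 0.167). Rbbp8 read 7.48, 7.83, 7.79 and 7.55, then 8.02, 7.84 and 7.81, then 7.77, 7.70 and 7.92, with a difference of 0.23 (adjusted p = 0.242) in p27-/- mice and groups that overlapped.

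BRCA1 and BARD1 form a ubiquitin ligase, PALB2 links it to BRCA2, and BRCA2 prepares the single strand for exchange. Brca1 read 5.41, 5.79, 6.36 and 5.67 in WT, 5.91, 6.16 and 6.49 in p27-/-, and 5.85, 6.15 and 6.09 in p27-/-;Sox2+/- mice. It had the widest spread of the 35, with a pooled within-group SD of 0.317, and WT replicate 3 was above all but 1 of the mutant mice. Its difference of 0.38 in p27-/- mice thus had a 95% interval of -0.05 to 0.80 (adjusted p = 0.264), and that of 0.22 in p27-/-;Sox2+/- mice one of -0.20 to 0.65. Bard1 was tighter, at 4.47, 4.54, 4.59 and 4.59 in WT, 4.82, 4.77 and 5.05 in p27-/-, and 4.78, 4.60 and 4.83 in p27-/-;Sox2+/- mice. All 6 mutant mice were above the 4 WT mice, and the differences were 0.33 (SE 0.10, adjusted p = 0.0705) and 0.19 (SE 0.10, adjusted p = 0.364).

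Brca2 read 7.87, 8.07, 8.15 and 7.94 in WT, 8.19, 8.04 and 8.08 in p27-/-, and 8.20, 8.20 and 8.39 in p27-/-;Sox2+/- mice. It was the only gene of the 35 with all p27-/-;Sox2+/- mice above all p27-/- mice, a pattern seen in 7.51% of all tested genes, and it also lay above WT there. The difference was 0.26 against WT (unadjusted p = 0.0245, adjusted p = 0.198) and 0.16 against p27-/- (95% interval -0.07 to 0.39, adjusted p = 0.928). Palb2 differed from WT by 0.06 and 0.09, with overlapping groups.

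Among the other genes of strand exchange, the differences from WT were -0.04 for Rad51c and -0.04 for Rad54l in p27-/- mice, and 0.01 and 0.08 in p27-/-;Sox2+/- mice. Rad51c acts in complexes with the products of Xrcc2 and Xrcc3, and Rad54l encodes a motor protein that remodels the joined strands. Xrcc2 and Xrcc3 differed by 0.14 and 0.09 in p27-/-, and by 0.12 and 0.19 in p27-/-;Sox2+/- mice. Rad54b, a relative of Rad54l, differed by 0.19 and 0.25, and its highest value of 5.36 came from p27-/-;Sox2+/- replicate 3 while the other 2 mice of that group were at 4.52 and 4.91. None of the 5 had groups apart from WT.

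The 7 genes of the Fanconi core complex on the list followed here were all above 0 in both comparisons, with none called. They ran from 0.004 for Fancc to 0.23 for Fance in p27-/- mice and from 0.04 for Fancm to 0.24 for Fancg in p27-/-;Sox2+/- mice. Other Fanconi genes are counted below, with the partner genes. Fance encodes the subunit that binds FANCD2, and read 6.56, 6.40, 6.56 and 6.63 in WT, 6.59, 6.89 and 6.81 in p27-/-, and 6.78, 6.65 and 6.66 in p27-/-;Sox2+/- mice. The p27-/-;Sox2+/- mice were above WT without overlap, whereas p27-/- replicate 1 was among the WT mice, and the differences were 0.23 (adjusted p = 0.242) and 0.16 (adjusted p = 0.495). Fancl encodes the ubiquitin ligase of the complex and differed by 0.23 and 0.22. Fancm, the gene of the translocase that anchors the complex to DNA, had all p27-/- mice at 8.63 to 8.67 above WT at 8.42 to 8.62, with a difference of 0.12 (adjusted p = 0.425). Fanca, Fancf and Fancg differed by 0.09, 0.14 and 0.21 in p27-/- mice and overlapped WT in both mutants.

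Fancd2 and Fanci encode the pair that receives ubiquitin from this complex. Fancd2 lies on chromosome 6, 21.3 Mb from Cdkn1b, and read 5.54, 5.39, 5.34 and 5.66 in WT, 5.48, 5.48 and 5.96 in p27-/-, and 5.87, 5.56 and 5.67 in p27-/-;Sox2+/- mice. Its differences from WT were 0.16 (95% interval -0.15 to 0.47) and 0.22 (-0.09 to 0.52), with overlapping groups. Fanci differed by 0.04 and -0.03, and p27-/- replicate 3 had the highest value of all mice for both Fancd2 and Fanci, 5.96 and 4.08. Msh6, which encodes a mismatch-binding protein, had all 6 mutant mice at 8.76 to 8.81 and WT at 8.37 to 8.74, with differences of 0.15 and 0.17 (adjusted p = 0.360 and 0.390). Polq, the gene of the polymerase that joins ends by short repeats, differed by 0.06 and -0.08, and Eme1, the gene of the partner of the MUS81 nuclease, by 0.12 and 0.05.

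When the mutants were set against each other, none of the 35 was called by limma, beside 0.145% of all tested genes, and 1 of the 35, Brip1, had an unadjusted p under 0.05, lower, beside 3.19% of all tested genes. The differences of p27-/-;Sox2+/- from p27-/- mice ran from -0.21 for Brip1 to 0.24 for Fancc, with a median of 0.02, and 18 of the 35 were above 0. All p27-/-;Sox2+/- mice were below all p27-/- mice for Brip1, Topbp1 and Fancm, beside 7.75% of all tested genes. The median 95% interval reached 0.27 to either side of the difference, and for 33 of the 35 it lay within 0.5 of 0. Against WT the median reach was 0.25, and the intervals of 26 of the 35 in p27-/- and 28 in p27-/-;Sox2+/- mice lay within 0.5 of 0. In simulated data with 200 of 17268 genes changed by 0.5 in log2, 32% of those genes were called for p27-/- against WT. For p27-/-;Sox2+/- mice against WT it was 40.5%, and changes of 0.25 gave 0% in both. The simulation at 0.5 held 65 and 82 calls and the data 1343 and 468, and more calls make the adjusted threshold easier to pass. These shares therefore do not give the sensitivity reached in the data.

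Of the other genes of these pathways, 64 were tested, and 56 of their differences were above 0 in p27-/- mice against WT (87.5%, beside 51.6% of all tested genes). The median was 0.16, beside 0.01. In this comparison 7 of the 64 passed (10.9%, beside 7.78% of all tested genes), 6 higher (9.38%, beside 3.16%) and 1 lower. Without a mouse the number was 3 (p27-/- replicate 2 or 3, or WT replicate 4) to 11 (WT replicate 1). By pathway these were 3 of 25 recombination genes, 1 of 15 Fanconi genes and 3 of 25 checkpoint genes, with 1 gene, Slx4, on both of the first lists. In p27-/-;Sox2+/- mice against WT 2 of the 64 passed, both higher (3.1%, beside 2.71% of all tested genes in either direction and 0.828% higher). Tipin and Clspn, whose products tie ATR to CHEK1 at the fork, rose by 0.55 (adjusted p = 0.00726) and 0.42 (adjusted p = 0.0213) in p27-/-, and by 0.42 (adjusted p = 0.0444) and 0.45 (adjusted p = 0.0254) in p27-/-;Sox2+/- mice. Clspn read 4.26 to 4.37 in WT, 4.58 to 4.85 in p27-/- and 4.69 to 4.84 in p27-/-;Sox2+/- mice, so that both mutants were clear of WT. In p27-/- mice the call of Tipin held in 19 of 19 other settings and that of Clspn in 15 of 19, lost without p27-/- replicate 2 or 3. In p27-/-;Sox2+/- mice both were lost without any 1 mouse of that genotype or WT replicate 4, and Tipin also without WT replicate 3 or any 1 p27-/- mouse. Fignl1, the gene of an ATPase of recombination, rose by 0.57 (adjusted p = 0.00926) in p27-/- mice, and Rmi2, the gene of a partner of BLM, by 0.40 (adjusted p = 0.0197), a call lost without p27-/- replicate 2 or 3 or WT replicate 4.

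Ube2t, which encodes the enzyme that works with FANCL, rose by 0.67 in p27-/- mice (adjusted p = 0.0204), which was lost without p27-/- replicate 3 or WT replicate 4. Ppm1d, which encodes the phosphatase that ends checkpoint signals, rose by 0.36 (adjusted p = 0.0352). Mcm9, the gene of a helicase of recombination, fell by 0.42 (adjusted p = 0.0491). With 1 mouse left out Ppm1d held in 4 of 10 fits (lost without p27-/- replicate 1 or 2, p27-/-;Sox2+/- replicate 2, or WT replicate 2, 3 or 4), and Mcm9 in 1 of 10, that without WT replicate 1. In p27-/-;Sox2+/- mice Fignl1, Rmi2, Ube2t, Ppm1d and Mcm9 differed from WT by 0.41, 0.27, 0.41, 0.32 and -0.24, and none of them passed. None of the 64 passed between the mutants, beside 0.145% of all tested genes (limma, 0 of the 64 at an unadjusted p under 0.05).

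Other repair pathways were counted in the same way. None of the 9 genes of non-homologous end joining was called in any comparison, with a median difference of -0.03 in p27-/- and 0.07 in p27-/-;Sox2+/- mice, and 1 had an unadjusted p under 0.05, in p27-/- mice. None of 6 mismatch repair genes (median 0.13 and 0.05) or of 13 nucleotide excision genes (median 0.10 and 0.10) was called by limma, with 2 of each list at an unadjusted p under 0.05 in p27-/- mice, and 0 and 1 in p27-/-;Sox2+/- mice. The 19 base excision genes had a median of 0.14 in p27-/- mice, with 16 above 0, and of 0.12 in p27-/-;Sox2+/- mice, with 12 above 0. In p27-/- mice 2 of the 19 rose (10.5%, beside 3.16% of all tested genes called higher). These were the uracil and oxidised-base glycosylase genes Ung (0.57, adjusted p = 0.00425) and Neil3 (0.53, adjusted p = 0.0280). None of the 19 was called in p27-/-;Sox2+/- mice (2 at an unadjusted p under 0.05). The genes counted here at an unadjusted p under 0.05 were all higher. Over all tested genes 11.3% were so in p27-/- and 7.64% in p27-/-;Sox2+/- mice. The differences between these lists were not tested.

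**Figure D4:**
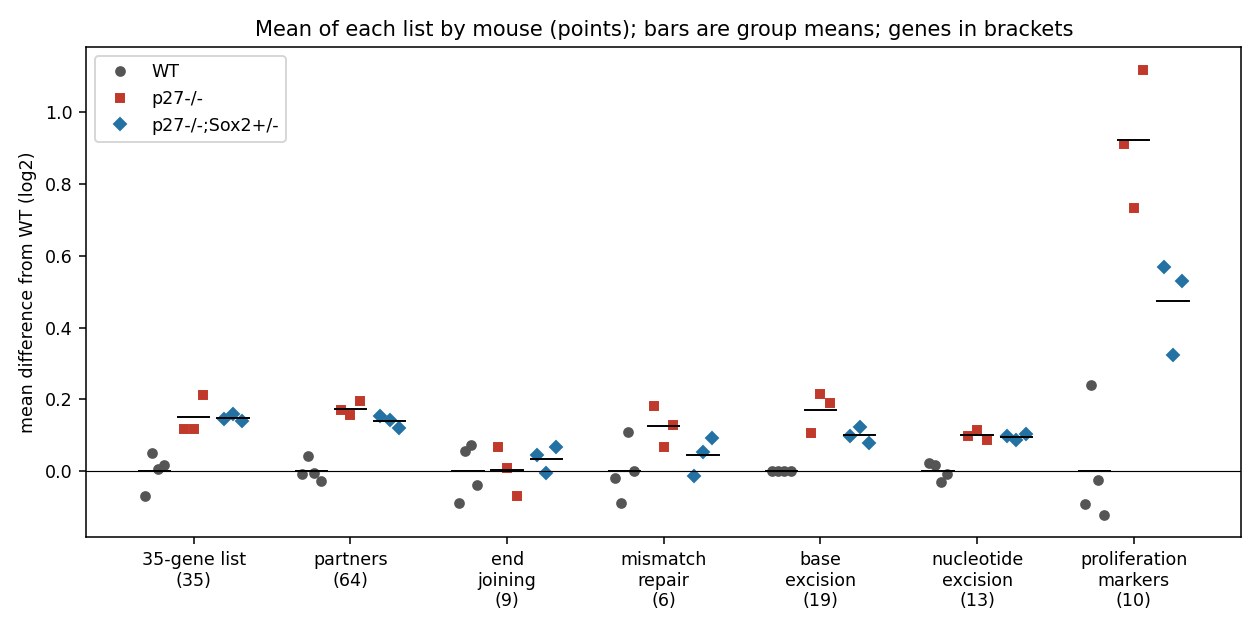
Mean over each list of the difference from WT (vertical axis, log2) in each mouse, for WT (circles), p27-/- (squares) and p27-/-;Sox2+/- mice (diamonds), with bars at group means and the number of genes in brackets. The 35 genes and their 64 partners lie between 0.118 and 0.213 in all mutant mice. The 19 base excision genes (0.078 to 0.215) and the 13 nucleotide excision genes (0.087 to 0.115) also lie above every WT mouse there. The 9 end-joining and 6 mismatch repair genes overlap WT, and the 10 proliferation markers reach 0.734 to 1.119 in p27-/- mice.

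The mean of 10 markers of cell division, like that of the 35 genes, was higher in each of the 6 mutant mice than in any WT mouse. Of these proliferation markers 7 rose in p27-/- mice and 2 in p27-/-;Sox2+/- mice, and the mean over the 10 was 0.922 above WT in p27-/- (0.734 to 1.119) and 0.474 above it in p27-/-;Sox2+/- mice (0.325 to 0.568), with WT at -0.123 to 0.239. A sum over a list, here and below, adds values that are not per length, so the genes with the highest values weigh most in it. The log2 of the summed level of these 10 markers was 10.06 to 10.42 in WT, 10.99 to 11.41 in p27-/- and 10.57 to 10.82 in p27-/-;Sox2+/- mice. Between the mutants none was called by limma, and 7 had an unadjusted p under 0.05, all lower in p27-/-;Sox2+/- mice. In the mean of these markers the mutants did not overlap. In the mean of the 35 genes they did, with smaller shifts from WT of 0.150 ± 0.054 (SD) and 0.147 ± 0.010 (SD). The shifts differ in size between the lists, so these overlaps cannot be set against each other. Mki67, which marks cycling cells, read 6.79, 8.12, 7.27 and 7.26 in WT, 9.47, 9.27 and 9.89 in p27-/-, and 8.82, 8.44 and 8.89 in p27-/-;Sox2+/- mice, a rise of 2.19 (adjusted p = 0.000396) and 1.36 (adjusted p = 0.0105). Cdk1, the kinase gene of mitotic entry, rose by 0.88 (adjusted p = 0.00279) in p27-/- and differed by 0.34 (adjusted p = 0.210) in p27-/-;Sox2+/- mice, and Mcm5, a gene of the replicative helicase, differed by 0.33 (adjusted p = 0.175) and 0.28 (adjusted p = 0.329). The part of cell division in the differences of the 35 genes was not tested.

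Markers of other cells also moved. The 4 tested SC markers include Sox2, of which p27-/-;Sox2+/- mice carry a single working copy by design. All 4 were lower on average in both mutants and 1, Cdh1, fell (by 0.58 in p27-/- mice, adjusted p = 0.0126 by limma). The log2 of the summed level of the 4, Sox2 included, was 9.67 to 9.76 in WT, 9.31 to 9.51 in p27-/- and 9.36 to 9.61 in p27-/-;Sox2+/- mice. Of 6 endothelial markers Kdr fell in both mutants (by 0.83, adjusted p = 0.00966, and by 0.67, adjusted p = 0.0459), with sums of 8.51 to 8.71, 7.97 to 8.37 and 8.17 to 8.52. Of 5 fibroblast markers 2, Lum and Pdgfra, fell in p27-/- mice. Of 5 melanotroph markers Pcsk1 fell in both mutants and Pcsk2 rose in p27-/- mice, and of 6 anterior lobe markers Fshb fell in both. In p27-/- mice 0 endothelial, 1 fibroblast, 4 melanotroph and 2 anterior lobe markers were above WT on average. In p27-/-;Sox2+/- mice these numbers were 1, 0, 3 and 0. Over all tested genes 7.78% were called in p27-/- and 2.71% in p27-/-;Sox2+/- mice against WT, in either direction.

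Single libraries stood apart in the anterior lobe markers. The log2 of their summed level was 17.76 in WT replicate 2 and 13.86 to 14.35 in the other WT mice, 16.55 in p27-/- replicate 1 and 12.77 and 14.85 in the other p27-/- mice, and 13.41 to 14.82 in p27-/-;Sox2+/- mice. WT replicate 2 also had the highest WT values of Mki67 and of the mean of the proliferation markers. Of the 35 genes 3 were called in p27-/- mice without WT replicate 2 and 2 (Brip1 and Rad51ap1) without p27-/- replicate 1. None of 6 posterior lobe markers was called by limma, but all 6 were lower in both mutants, with a median difference of -0.68 in p27-/- and -0.73 in p27-/-;Sox2+/- mice, and 3 and 2 of them were lower at an unadjusted p under 0.05. Their sums were 7.81 to 10.07 in WT, lowest in replicate 2, 8.10 to 8.59 in p27-/- and 7.50 to 9.52 in p27-/-;Sox2+/- mice. None of 5 macrophage markers was called either, with all 5 lower in both mutants (median -0.14 and -0.23, 0 and 1 at an unadjusted p under 0.05). None of 3 red blood cell markers was called (median -0.12 and -0.33, 0 and 1 at an unadjusted p under 0.05), and of 6 lymphocyte markers only Ptprc was above the filter and was not called. None of these markers was called between the mutants by limma (unadjusted p under 0.05 for 1 melanotroph and 1 endothelial marker), and their part in the differences of the 35 genes was not tested.

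The gene spans of 18 of the 35 overlap another annotated gene, Rad51ap1 and Brip1 included, and the study's methods had RSEM assign reads to genes without use of strand. Whether their exons overlap was not tested, so the values of these 18 may or may not hold reads of a neighbour. Nothing in the labels says more of the mice than their genotype, tissue and age. The paper lists as many females as males for WT and more females than males for each mutant, without naming the libraries. The p-values measure the spread between these mice.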

How the data were processed

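RNA from dissected IL of 10 mice was amplified and sequenced by the authors, with 1 library per mouse. According to the submitters' processing notes they used STAR 2.5.2a, RSEM 1.3.30 and DESeq2 1.18.1, on GRCm38 per the paper. The authors deposited 1 table of normalised log2 values for 29527 Ensembl genes, of which 22709 have a symbol. The transformation is not given in the sources used here, the lowest value is -1.89, and the table gives no reads per sample. Precision therefore rests on how many mice each group has, and no interval that needs depth was computed.

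Groups follow the genotypes of the labels. Genes with a mean of at least 10 on the linear scale (3.32 in log2) were tested with limma 3.58.1 in R 4.3.3, with 1 fit (lmFit) of all 10 mice, eBayes moderation along a trend in the mean, and adjustment after Benjamini and Hochberg over 17268 genes. The model was tested on simulated data. Tables and figures were made in Python 3.11.15. Symbols were matched to the table and to RefSeq synonyms, and Rev7, Paxx, Lhb, Hbb-bs and Hbb-bt were not matched.

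The 35 genes, the other lists and the tests were chosen with earlier results of these data known. Values in every mouse were given for genes of the 35 past the threshold, the 8 with the smallest p in p27-/- against WT, and Atm, Atr, Brca1, Brca2, Chek1, Chek2, Fancd2 and Rad50. From other lists those past the threshold in p27-/- against WT were named, with Mki67, Cdk1 and Mcm5. Alternatives were quantile normalization, median centring, array weights, no trend, a fit of 2 groups, no filter, a mean of at least 50, Xist as a covariate, a block for the replicate number, and leaving out each sample. Promoters and positions are those of RefSeq on GRCm38.p6.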

Additional observations from a re-analysis of the deposited data

Results flagged for a closer look

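In 3 of 59 measures tested in the 4 WT mice, 1 mouse stood apart by Dixon's ratio of its gap to the range of the group, where chance gives 2.95. For Polq, WT replicate 1 read 6.41 and the other 3 mice 6.84 to 6.87, a ratio of 0.925. For Fancl, WT replicate 2 read 8.35 and the others 7.92 to 7.99, a ratio of 0.831. For Sox2, WT replicate 3 read 7.75 and the others 7.34 to 7.39, a ratio of 0.885.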

How the results depend on the processing

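Over 19 alternatives the number of the 35 genes called in p27-/- against WT went from 3 to 1 without the filter on low values, with a mean of at least 50 (where Brip1 and Rad51ap1 are not tested) and with the replicate block, and was 1 to 3 with a mouse left out, 1 without p27-/- replicate 2 or 3 or WT replicate 3. Brip1 kept its call in 18 of 18 settings (adjusted p = 0.00246 to 0.0335), Rad51ap1 in 12 of 18 (0.0184 to 0.134) and Topbp1 in 5 of 19 (0.0353 to 0.140), and Bard1 gained one with quantile normalization. In p27-/-;Sox2+/- against WT the number went from 0 to 1 with array weights (Chek2) and with quantile normalization (Brip1), and was 0 between the mutants in every setting. The median difference of the 35 genes ranged from 0.113 to 0.162 in p27-/- and from 0.140 to 0.198 (quantile normalization) in p27-/-;Sox2+/- against WT. Between the mutants it was -0.026 to 0.021 with a mouse left out, below 0 without p27-/-;Sox2+/- replicate 2.

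Of the 64 partner genes, 7 were called in p27-/- mice, against 4 with a mean of at least 50, 2 with the replicate block and 3 to 11 with a mouse left out (3 without p27-/- replicate 2 or 3 or WT replicate 4, 11 without WT replicate 1). In p27-/-;Sox2+/- mice 2 were called, against 1 without a filter, with a mean of at least 50, in the fit of 2 groups and with Xist, 0 with the block, 7 with array weights and 0 to 4 with a mouse left out (0 without any 1 p27-/-;Sox2+/- mouse or WT replicate 4). Over all tested genes the 1343, 468 and 25 calls (p27-/- and p27-/-;Sox2+/- against WT, and between the mutants) became 403 to 1709, 80 to 658 and 0 to 41 with a mouse left out, 595, 209 and 2 with the block, 831, 312 and 6 without a filter, 807, 260 and 45 with 2 groups, and 1764, 1240 and 283 with array weights. The last became 8 without the trend and 15 with quantile normalization. The causes were not tested. Same-numbered mice of different genotypes had correlations of -0.24 to 0.18 (1 of 9 over 0.1), beside -0.19 to 0.26 for other pairs (7 of 24 over 0.1). By this measure 0 of 9 mice were closest to their own number in every other genotype. Among WT mice alone, p27-/-;Sox2+/- replicates 2 and 3 were closest to their own number (0.18 and 0.07). The labels do not say whether the numbers pair mice.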
